A study of Danio rerio with 12 samples.

Results

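The comparison described here is TCDD against vehicle in the regenerating caudal fin of zebrafish larvae at 2 days post amputation (dpa), measured on 6 of the 12 arrays of the series. Its members are the 3 arrays titled as TCDD and the 3 titled as control at 2 dpa, and the comparison runs over all 15502 probe sets that are not array controls. Larvae of the AB strain had the caudal fin cut at 2 days post fertilization. They then spent 1 h in water holding 0.5 ng/mL TCDD, or the solvent DMSO as vehicle, and the regrowing tissue was taken 2 days later. The other 6 arrays, 3 TCDD and 3 vehicle, hold tissue of 3 dpa. Each array carries RNA of 150 pooled fins, of which 100 ng went through the Two-Cycle labelling kit, so the p-values measure the spread between pools and not between larvae.

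TCDD is a persistent dioxin that binds the aryl hydrocarbon receptor (AHR), which then pairs with an ARNT protein in the nucleus and switches on target genes, best known among them the cytochrome P450 genes of the CYP1 family. A cut larval fin closes the wound with epidermis, forms a proliferating mass of cells called the blastema, and rebuilds the fin fold with its matrix. In zebrafish larvae TCDD is known to block this regrowth through the AHR.

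The deposited values are ratios on a scale of each probe set's own. For 12018 of the probe sets tested the median ratio over the 12 arrays was 1, so there a ratio of 1 is the middle of the arrays. For the other 3484 the median ratio was below 1. Levels of different genes cannot be compared on such scales. For the same reason the presence of epidermal or fin fold transcripts could not be judged from levels. Fin fold and epidermal markers were on the array. The fin fold list had a median of −0.39 (log2, TCDD minus vehicle), with 7 of 8 probe sets below 0 and none called. Of the 8, 1 (12.5%) lay lower without overlap between groups, beside 11.8% of all probe sets. Its median on single arrays was 0.15, −0.25 and −0.58 with TCDD and 0.13, 0.18 and 0.16 with vehicle. TCDD replicate 1 thus lay within the vehicle range. In this list the actinodin genes and1, and2 and and3, of a family that builds the fibrils of the fin fold, read −0.22, −0.28 and −0.42. Whole pieces of tissue were used, so fewer cells of a type and less RNA per cell cannot be told apart in any value given here. A probe set was called at an adjusted p under 0.05 in the limma fit, and effects are log2 differences, TCDD minus vehicle, with the standard error (SE) of that fit.

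The arrays differed in spread. Log2 values of TCDD replicate 3 had a standard deviation of 0.564, against 0.359 to 0.446 for the other 5 arrays of the day. This array also had the lowest median correlation with its own group, 0.455, where the other 5 had 0.591 to 0.76. The log2 ratio of the 5' to the 3' control probe set of GAPDH, a sign of RNA integrity or labelling, was 0.252, 0.169 and 0.278 on the TCDD arrays and 0.00592, 0.00589 and 0.0291 on the vehicle arrays. The groups did not overlap in it, and its part in the results below was not tested. The 5' and 3' probe sets each have their own scale. The value can therefore be compared between arrays but does not give the RNA integrity of an array.

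At 2 dpa 25 of the 15502 probe sets (0.161%) were called, of which 14 (0.0903%) rose and 11 (0.071%) fell with TCDD. At an unadjusted p under 0.05 there were 1583 (10.2%), 575 higher (3.71%) and 1008 lower (6.5%). Effects above 0 made up 48.3% of all probe sets and effects below 0 51.7%. A further measure counts probe sets in which the ranges of the 3 TCDD and the 3 vehicle arrays do not overlap. There were 3107 of these (20%), with 1284 (8.28%) higher and 1823 (11.8%) lower with TCDD. Changes of at least 2 on the log2 scale were more frequent upwards, with 31 probe sets higher and 11 lower, while those of at least 0.5 were more frequent downwards, with 715 higher and 946 lower. Of the called probe sets 19 carry 1 gene symbol, 12 of them higher and 7 lower.

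The genes with the largest called increases encode enzymes of foreign compound metabolism. The gene cyp1a, whose product oxidizes planar aromatic compounds, had ratios of 3.17, 2.41 and 2.28 on the TCDD arrays, against 0.0196, 0.0159 and 0.000773 on the vehicle arrays. Its effect was 8.70 (SE 1.09, adjusted p = 0.0165), and vehicle replicate 3 read far below the other vehicle arrays. The files hold no detection calls, so it is not known whether vehicle arrays read cyp1a above background. A member of the same family, cyp1c1, read 2.35, 2.23 and 1.83 with TCDD, against 0.039, 0.0399 and 0.0207 with vehicle, an effect of 6.06 (SE 0.82, adjusted p = 0.0238). Other cyp1c1 probe sets read 0.86 and 0.09 and were not called. The 3 probe sets of this gene therefore differ widely in size. The called effects of cyp1a and cyp1c1 rest on very low vehicle ratios, and adding 0.1 to the ratios before log2 makes both smaller.

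Among partner enzymes of this metabolism, the genes cyb5a and sult6b1 were called higher too. The gene cyb5a encodes cytochrome b5, which passes electrons to P450 enzymes and lipid desaturases. It had ratios of 3.11, 2.58 and 2.45 with TCDD and 0.386, 0.439 and 0.242 with vehicle (2.97, SE 0.26, adjusted p = 0.00163). Ratios of sult6b1, a cytosolic sulfotransferase gene, were 1.77, 1.55 and 1.44 with TCDD and 0.666, 0.722 and 0.731 with vehicle (1.17, SE 0.16, adjusted p = 0.0281). Every TCDD array lay above every vehicle array in both genes. The wider families did not follow them. Of 60 probe sets of P450 genes outside the CYP1 family 3 lay higher (5%) and 3 lower (5%) without overlap. Of 18 conjugation enzyme probe sets 2 lay higher (11.1%), sult6b1 among them, and 1 lower (5.56%). Over all probe sets 8.28% lay higher and 11.8% lower. Of 8 probe sets of cytochrome b5 and P450 electron donors 1, cyb5a, lay higher and 1 lower. The cytochrome b5 reductase gene cyb5r3 lay lower without overlap, at −0.44, and was not called.

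The list of AHR response genes, which includes cyp1a, cyp1c1 and sult6b1, held 9 genes on 13 probe sets. No member was called beyond 1 probe set of each of these 3. In all 7 (53.8%) lay higher and 2 (15.4%) lower without overlap, beside 8.28% and 11.8% of all probe sets. The members of this list were chosen with earlier results of these data known, so these shares are not independent of those results. The list median was 0.39, which ran from 0.126 without vehicle replicate 3 to 0.597 without vehicle replicate 2. The uncalled members include tiparp, an AHR-induced repressor of the receptor, with ratios of 1.64, 1.13 and 1.95 with TCDD and 0.871, 0.703 and 0.703 with vehicle (1.02, adjusted p = 0.0908). The receptor gene ahr2 read 0.45, and the 2 probe sets of arnt2, an ARNT gene, read 0.38 and 0.44. None of these was called. The 2 probe sets of hsp90aa1.2, also counted as a pathway component, read higher and are given below. A quinone reductase gene often counted as an AHR target, nqo1, read −0.36 with the TCDD arrays below the vehicle arrays.

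Signalling genes formed the next group. The secreted Wnt enhancer gene rspo1 had ratios of 1.58, 2 and 4.48 on the TCDD arrays, against 0.295, 0.244 and 0.423 on the vehicle arrays (2.95, SE 0.36, adjusted p = 0.0129). TCDD replicate 3 was the highest array of this gene. The Wnt receptor gene fzd7a had tighter values, 1.44, 1.43 and 1.72 with TCDD against 0.412, 0.497 and 0.569 with vehicle (1.64, SE 0.13, adjusted p = 0.00128). Of the 46 Wnt probe sets 7 lay higher (15.2%) and 4 lower (8.7%) without overlap, beside 8.28% and 11.8% of all probe sets. The list median was −0.01, beside −0.00406 for all probe sets. Among uncalled Wnt genes, the 2 secreted inhibitors notum1b and dkk1b read 1.18 and 1.04. The 2 probe sets of the receptor fzd10 read −0.88 and −1.08, the Wnt5 receptor ror2 read −0.60, and porcnl, named for the acyltransferase that modifies Wnt proteins, read −0.71. All of these lay without overlap between the groups.

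Genes for enzymes that make small signalling molecules, and for a regulator of a cofactor-making enzyme, were also called. The prostaglandin D synthase gene ptgdsb.2 had ratios of 1.93, 1.62 and 3.4 with TCDD and 0.249, 0.334 and 0.324 with vehicle (2.87, SE 0.33, adjusted p = 0.0112). An enzyme that inactivates prostaglandins and leukotrienes is encoded by ptgr1.1, which read −1.09 and was not called (adjusted p = 0.0647). The gene gchfr encodes the feedback regulator of GTP cyclohydrolase, which makes the cofactor tetrahydrobiopterin. Its ratios were 1.44, 1.55 and 1.99 with TCDD and 0.423, 0.505 and 0.506 with vehicle (1.79, SE 0.18, adjusted p = 0.00472). Tryptophan hydroxylase, the serotonin-making enzyme encoded by tph2, needs that cofactor. The tph2 probe set read 1.7, 1.28 and 1.22 with TCDD, against 0.629, 0.557 and 0.731 with vehicle (1.12, SE 0.16, adjusted p = 0.0269). No array of either group crossed into the range of the other in these 3 called genes.

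Matrix and adhesion genes were called in both directions. The corneal and connective tissue proteoglycan gene kera had ratios of 0.309, 0.405 and 0.225 with TCDD and 1.97, 2.2 and 2.13 with vehicle. It fell by 2.78 (SE 0.21, adjusted p = 0.00128). The gene sdk2b, which encodes a cell adhesion protein of the sidekick family, read 1.2, 1.38 and 1.31 with TCDD against 0.619, 0.566 and 0.644 with vehicle (1.09, SE 0.10, adjusted p = 0.0029). Both groups were tight. The gene jac1, to which no function is assigned here, rose as well. Its ratios were 2.63, 2.14 and 2.4 with TCDD and 0.358, 0.518 and 0.153 with vehicle (2.97, SE 0.44, adjusted p = 0.0345).

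Both called globin genes fell, and so did a small heat shock protein gene. Myoglobin, the oxygen store encoded by mb, had ratios of 0.405, 0.38 and 0.202 with TCDD and 3.34, 2.95 and 6.37 with vehicle (−3.66, SE 0.49, adjusted p = 0.0215). Cytoglobin 1, encoded by cygb1, read 0.495, 0.692 and 0.375 with TCDD and 2.82, 1.92 and 2.18 with vehicle (−2.17, SE 0.32, adjusted p = 0.0336), and its second probe set read −2.54 (adjusted p = 0.0884). Skeletal muscle genes were counted beside mb. Of 25 skeletal muscle probe sets 1 lay higher (4%) and 1 lower (4%) without overlap, beside 8.28% and 11.8% of all probe sets. The troponin gene tnni2b.1 lay lower without overlap, at −0.68, and was not called. The list median was 0.08, which ran from −0.02 without TCDD replicate 1 to 0.18 without vehicle replicate 2. Of 13 red blood cell marker probe sets 3 lay higher and 1 lower without overlap, with a median of 0.04 and none called. The 3 were the blood globin genes hbae3, at 1.35 and 2.44, and hbbe2, at 0.87, and the lower one was the red cell carbonic anhydrase gene cahz, at −1.30. Among only the red blood cell marker probe sets with a median ratio of 1, the median effect was 0.866. The small heat shock protein gene hspb1, which guards actin filaments and unfolded proteins, had ratios of 0.608, 0.609 and 0.36 with TCDD and 1.72, 1.79 and 2.29 with vehicle (−1.91, SE 0.23, adjusted p = 0.0119).

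Heat shock proteins and co-chaperones as a list had 11 of 79 probe sets higher (13.9%) and 9 lower (11.4%) without overlap, with a median of 0.04. The shares over all probe sets were 8.28% higher and 11.8% lower. The inducible chaperone gene hsp70.3 had ratios of 2.56, 12.1 and 51.5 with TCDD, against 0.336, 0.672 and 1.23 with vehicle (4.16, SE 1.62, adjusted p = 0.415). The groups did not overlap, but the spread within TCDD spanned a larger range than the gap between groups. The 2 probe sets of hsp90aa1.2, whose product belongs to the family that holds the AHR in the cytosol, read 2.94 and 2.80 with TCDD replicate 3 the highest array in both, and were not called. The genes hsp70.3 and hsp90aa1.2 are given because their values were large, a choice made after the values were seen.

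Genes of blood cell signalling, immunity and nuclear control made up the rest of the called symbols. The phosphatase gene ptpn6, which restrains signalling in blood cells, had ratios of 0.664, 0.923 and 0.719 with TCDD and 1.55, 1.49 and 1.58 with vehicle (−1.02, SE 0.13, adjusted p = 0.019). The complement component gene c6.2 read 0.772, 0.654 and 0.584 with TCDD and 1.39, 1.23 and 1.45 with vehicle (−1.02, SE 0.15, adjusted p = 0.0281). The histone chaperone and apoptosis regulator gene daxx read 0.935, 0.822 and 0.948 with TCDD and 1.4, 1.72 and 1.64 with vehicle (−0.81, SE 0.13, adjusted p = 0.0419). Its second probe set read −0.80 and was not called (adjusted p = 0.504).

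One of 4 probe sets for mpx, which encodes the peroxidase of neutrophils, rose with ratios of 1.88, 3.25 and 1.72 with TCDD and 0.22, 0.276 and 0.208 with vehicle (3.23, SE 0.27, adjusted p = 0.00128). The other mpx probe sets read −0.49, −0.04 and −0.01 and were not called, and the names of all 4 begin with the same cluster number as that of cyp1a. Whether the called probe set reads mpx was not tested. Of the 23 neutrophil and macrophage probe sets 2 (8.7%) lay higher without overlap, this one and the collagenase gene mmp13a (1.29), and 4 (17.4%) lay lower. Over all probe sets 8.28% lay higher and 11.8% lower. The list median was −0.01, and −0.20 without TCDD replicate 3.

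**Figure D1:**
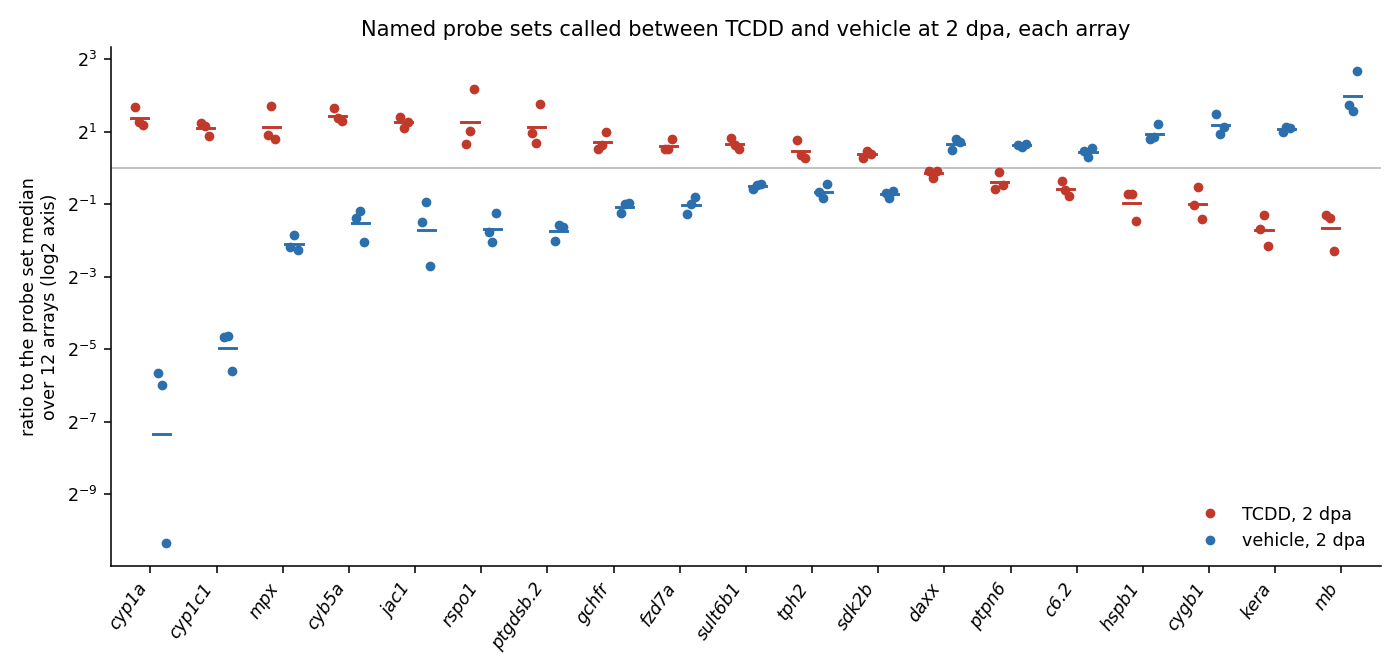
Ratio to the probe set's median over 12 arrays (vertical, log2 axis) for the 19 called probe sets with 1 symbol, ordered by effect. Points are single arrays at 2 dpa, with TCDD in red left of vehicle in blue, and lines are the means of the log2 values. The groups do not overlap in any of the 19, and the vehicle arrays of cyp1a spread most, with ratios of 0.0196, 0.0159 and 0.000773.

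The calls of kera, fzd7a, the mpx probe set, cyb5a, sdk2b and gchfr held whichever single array of the 12 was left out. Those of ptgdsb.2 and hspb1 were lost without vehicle replicate 1 or 3 at 2 dpa, that of rspo1 without vehicle replicate 1 or 2, and that of cyp1a without any 1 of the 3 TCDD arrays, with adjusted p up to 0.0644 for ptgdsb.2, 0.0756 for hspb1 and 0.103 for rspo1 and cyp1a over all alternatives fitted. The calls of mb, cyp1c1, tph2, sult6b1, c6.2, cygb1 and daxx were lost without any 1 of the 6 arrays of the day, and those of ptpn6 and jac1 without 5 of them, with adjusted p up to 0.101 for mb and 0.201 for daxx. Of these 9 genes mb and ptpn6 kept the call without any 1 array of 3 dpa, and the other 7 lost it without at least 1 of those. As the groups do not overlap in any of these genes, leaving out 1 array could not reverse a direction.

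The 6 called probe sets without a symbol comprised 2 that rose and 4 that fell. The largest increase among them had ratios of 3.56, 2.63 and 1.99 with TCDD and 0.213, 0.191 and 0.107 with vehicle (4.02, SE 0.52, adjusted p = 0.019). The next read 3.53, 3.43 and 3.1 with TCDD and 0.42, 0.5 and 0.382 with vehicle (2.96, SE 0.33, adjusted p = 0.00867). The 4 lower ones had effects from −1.23 to −0.66, with adjusted p from 0.0281 to 0.0345. No gene is named for these in the annotation used. With the replicate number as a block, the first increase (adjusted p = 0.0546) and all 4 decreases (0.0556 to 0.0779) lost their calls. Those 5 were also lost without at least 5 of the 6 arrays of the day, taken singly, and the second increase without vehicle replicate 1 or 3.

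The 10 uncalled higher probe sets with the lowest p and no overlap had effects from 0.64, for the adiponectin receptor adipor2, to 1.80, for the sphingosine 1-phosphate receptor s1pr1. The heparan sulfate polymerase family gene ext1c came nearest, with ratios of 1.46, 1.41 and 1.17 with TCDD and 0.546, 0.627 and 0.835 with vehicle (1.02, adjusted p = 0.0545). The stress transcription factor gene atf5a read 2.36, 2.2 and 1.83 with TCDD and 0.855, 0.609 and 0.567 with vehicle (1.67, adjusted p = 0.0719). The others were the mitochondrial carbonic anhydrase gene ca5a (0.71), the GTP-binding protein gene gtpbp1 (0.86), the anion exchanger gene slc4a2a (0.76), and tiparp, notum1b and the second cyp1c1 probe set given above. Further probe sets of s1pr1, slc4a2a and adipor2 read 0.26 for s1pr1, 0.36 and −0.03 for slc4a2a, and 0.51 for adipor2.

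The 10 nearest lower probe sets had effects from −2.54, for the second cygb1 probe set, to −0.56. The wound and matrix gene postnb, periostin, had ratios of 0.721, 0.673 and 0.597 with TCDD and 1.41, 1.36 and 1.32 with vehicle (−1.04, adjusted p = 0.0764). Its second probe set read −1.58. The membrane-bound collagenase gene mmp14b read −0.60, and the retinol carrier gene rbp4 read 0.806, 0.644 and 0.636 with TCDD and 1.26, 1.45 and 1.78 with vehicle (−1.10, adjusted p = 0.0881). The remaining ones were birc6-as2 (−1.18), the splicing particle assembly gene clns1a (−0.56), the proteasome-bound deubiquitinase gene uchl5 (−0.70, and −0.58 on its other probe set), and the ptgr1.1, ror2, porcnl and cygb1 probe sets above.

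Functions were then compared by 65 gene lists. The lists and their members were chosen with earlier results of these data known. A list is described when the share of its probe sets lying without overlap in one direction was at least 2 times the share over all probe sets, with at least 5 such probe sets. The shares over all probe sets were 8.28% higher and 11.8% lower, and the shares of every list below stand beside these. This left 18 lists, 7 by their higher and 11 by their lower members. Lists were counted and not tested, and nearly all of their members were not called, so their values are given as levels only.

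Many cell division genes read lower with TCDD. Of 57 DNA replication probe sets of 52 genes, 29 (50.9%) lay lower without overlap, against 11.8% of all probe sets, and 0 higher. Their median was −0.70, and 53 of 57 read below 0. The dUTP-hydrolysing enzyme gene dut had ratios of 0.731, 0.516 and 0.639 with TCDD and 1.47, 1.27 and 3.58 with vehicle (−1.60, adjusted p = 0.131). The origin recognition genes orc5 and orc3 read −1.27 and −0.98, and the polymerase subunit gene pole4 read −0.78. Vehicle replicate 3 was the highest array in dut, orc5 and orc3, and without it the median of the list was −0.34.

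Mitosis genes shared this pattern. Of 88 probe sets of 59 genes 36 (40.9%) lay lower and 3 higher, with a median of −0.32 and of −0.12 without vehicle replicate 3. The cyclin gene ccnb1, which drives entry into mitosis, had ratios of 0.814, 0.743 and 0.821 with TCDD and 1.71, 1.47 and 3.73 with vehicle (−1.41, adjusted p = 0.16). The mitotic kinase gene plk1 read −1.53, and cdca7b, a chromatin factor gene active in dividing cells, read −1.32. The list scores, which are medians of the list on an array, ran from −0.35 to −0.23 on TCDD arrays and from −0.03 to 0.48 on vehicle arrays for mitosis. Even so, the lower vehicle arrays lay above all TCDD arrays. Other nuclear lists fell short of the limits for description. Without overlap, chromatin remodelling genes had 29 of 153 probe sets lower (19%) and 10 higher, general RNA polymerase II factors 18 of 79 lower (22.8%) and 3 higher, and nuclear pore genes 9 of 49 lower (18.4%) and 7 higher. Histones had 3 of 9 lower (33.3%) and 2 higher (22.2%), and DNA repair genes 3 of 41 lower (7.32%) and 4 higher (9.76%). All probe sets together gave 11.8% lower and 8.28% higher.

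Many genes for the making of secreted protein and matrix read lower as well. Of 58 probe sets of 50 genes for folding, translocation and sugar addition in the endoplasmic reticulum, 29 (50%) lay lower and 2 higher, with a median of −0.40. The disulfide isomerase gene pdia5 read −0.89 and −1.10 on its 2 probe sets without overlap and −0.10 on another. The oligosaccharyltransferase gene rpn1 had ratios of 1.02, 0.85 and 0.844 with TCDD and 1.15, 1.28 and 1.27 with vehicle (−0.45, adjusted p = 0.235). The calcium-binding chaperone gene calr read 1.07, 0.974 and 0.58 with TCDD and 1.62, 1.46 and 1.59 with vehicle (−0.88). TCDD replicate 3 had the lowest score of this list, and without it the median was −0.25.

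Of 25 collagen probe sets 8 (32%) lay lower and 0 higher, with a median of −0.19. With 1 array of the day left out, the median ran from −0.30 without TCDD replicate 1 to −0.17 without vehicle replicate 2. The basement membrane collagen gene col15a1a had ratios of 0.469, 0.617 and 0.316 with TCDD and 2.21, 1.45 and 1.55 with vehicle (−1.92, adjusted p = 0.148). The epidermal anchoring collagen gene col17a1b read −1.18, the fibrillar collagen genes col1a2 and col11a1a read −1.06 and −1.29, and TCDD replicate 3 was the lowest array in each of these 4 genes. Of 43 matrix glycoprotein and proteoglycan probe sets 13 (30.2%) lay lower, kera among them, and 3 higher. The matrix adhesion gene tgfbi read 0.86, 0.934 and 0.909 with TCDD and 1.89, 1.63 and 1.82 with vehicle (−0.98, adjusted p = 0.146), while the thrombospondin gene thbs1b read 1.18. Among 32 probe sets of remodelling enzymes 8 (25%) lay lower and 5 higher. The gelatinase gene mmp2 read −0.66 and −0.78 on its 2 probe sets, and mmp13a read 1.29 with a ratio of 3.58 on TCDD replicate 3, against 1.19 and 0.928 on the other TCDD arrays.

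Housekeeping machinery read slightly but widely lower. Of 78 cytosolic ribosomal protein probe sets of 74 genes 36 (46.2%) lay lower and 0 higher, and 74 of 78 read below 0, with a median of only −0.25. The largest step among those named was rpl37, with ratios of 1, 0.843 and 0.756 with TCDD and 1.23, 1.15 and 1.28 with vehicle (−0.51, adjusted p = 0.157). Of 69 mitochondrial ribosomal probe sets 18 (26.1%) lay lower and 1 higher, with a median of −0.21. The subunits of oxidative phosphorylation lay lower on 38 of 101 probe sets (37.6%) and higher on 4, with a median of −0.24, and of −0.16 without TCDD replicate 3. In each of these lists TCDD replicate 1 scored close to the lowest vehicle array. The scores were 0.036 against 0.074 for cytosolic and 0.0020 against 0.0098 for mitochondrial ribosomal proteins, and 0.0751 against 0.0782 for oxidative phosphorylation. The cytosolic ribosomal median was −0.334 without TCDD replicate 1 and −0.175 without TCDD replicate 2. The ATP synthase gene atp5mc1 read 0.988, 0.784 and 0.699 with TCDD and 1.31, 1.22 and 1.34 with vehicle (−0.66, adjusted p = 0.169), and its inhibitor gene atp5if1a read −0.53.

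Proteasome and splicing genes had medians nearer to 0. Of 55 proteasome probe sets 16 (29.1%) lay lower and 0 higher, and 50 of 55 read below 0 with a median of −0.17. The subunit genes psmd7 and psma5 read −0.37 and −0.36. Of 161 splicing and hnRNP probe sets 40 (24.8%) lay lower and 11 higher, with a median of −0.09, and of −0.05 without TCDD replicate 2. The nearest to a call was lsm6, an RNA-binding ring subunit gene, at −0.67 (adjusted p = 0.0973). Neighbouring functions had smaller shares. Of 73 ribosome biogenesis probe sets 16 lay lower (21.9%) and 1 higher, and of 95 translation factor probe sets 14 lay lower (14.7%) and 2 higher.

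**Figure D2:**
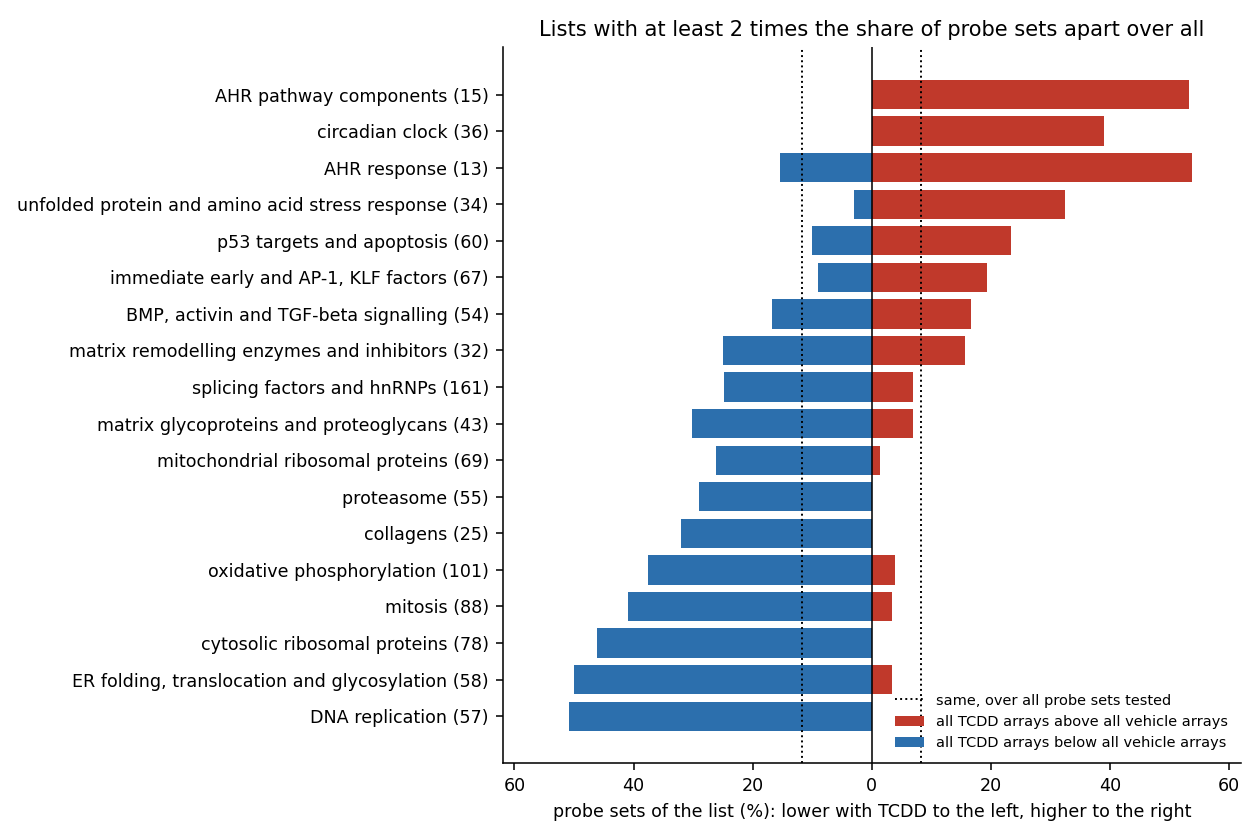
Share of each list's probe sets (%, number measured in brackets) whose 3 TCDD arrays lay all above (red, to the right) or all below (blue, to the left) the 3 vehicle arrays at 2 dpa, for the 18 lists described. Dotted lines give the shares over all 15502 probe sets, 8.28% higher and 11.8% lower. DNA replication (50.9%) and endoplasmic reticulum folding (50%) reach furthest to the left, and the AHR response (53.8%) and AHR pathway components (53.3%) furthest to the right. List members were chosen with earlier results of these data known.

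Clock genes were the most one-sided of the lists with higher members outside the AHR lists. Of 36 circadian clock probe sets of 27 genes, 14 (38.9%) lay higher without overlap and 0 lower, with a median of 0.52, and none was called. The light-sensing repressor family gene cry2 had ratios of 1.8, 1.24 and 0.959 with TCDD and 0.659, 0.422 and 0.498 with vehicle (1.32, adjusted p = 0.11). The clock output factor gene tefa read 2.43, 1.09 and 1.43 with TCDD and 0.762, 0.655 and 0.38 with vehicle on 1 probe set (1.44, adjusted p = 0.172) and 1.17 on the other. The clock repressor gene bhlhe40 read 0.96.

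Further clock genes are given by the size of their effects, a choice made after the values were seen. The largest was the light-induced repressor gene per2, with ratios of 6.83, 2.52 and 1.58 with TCDD and 0.349, 0.162 and 0.0933 with vehicle (4.11, SE 1.21, adjusted p = 0.272). Its second probe set read 0.84. The photolyase gene cry5 read 2.41 and 1.43, with TCDD replicate 1 at 9.14 and 6.39 and the other TCDD arrays between 1.08 and 1.67. The repressor genes nfil3-6 and cry1a read 2.06 and 1.11. Of the core activator genes, bmal2 read 0.77 and 0.07 on its 2 probe sets, bmal1b 0.52, bmal1a 0.37 and clocka −0.01, and the repressor gene per3 read 0.00.

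TCDD replicate 1 had the highest clock score, 0.38, where replicates 2 and 3 had 0.11 and 0.16 and the vehicle arrays −0.14, −0.38 and −0.30. Without that replicate the median of the list was 0.32. At 3 dpa the median was 0.18 and the scores of TCDD and vehicle arrays overlapped. The hour of collection is not in the labels, so its part in these values was not tested.

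**Figure D3:**
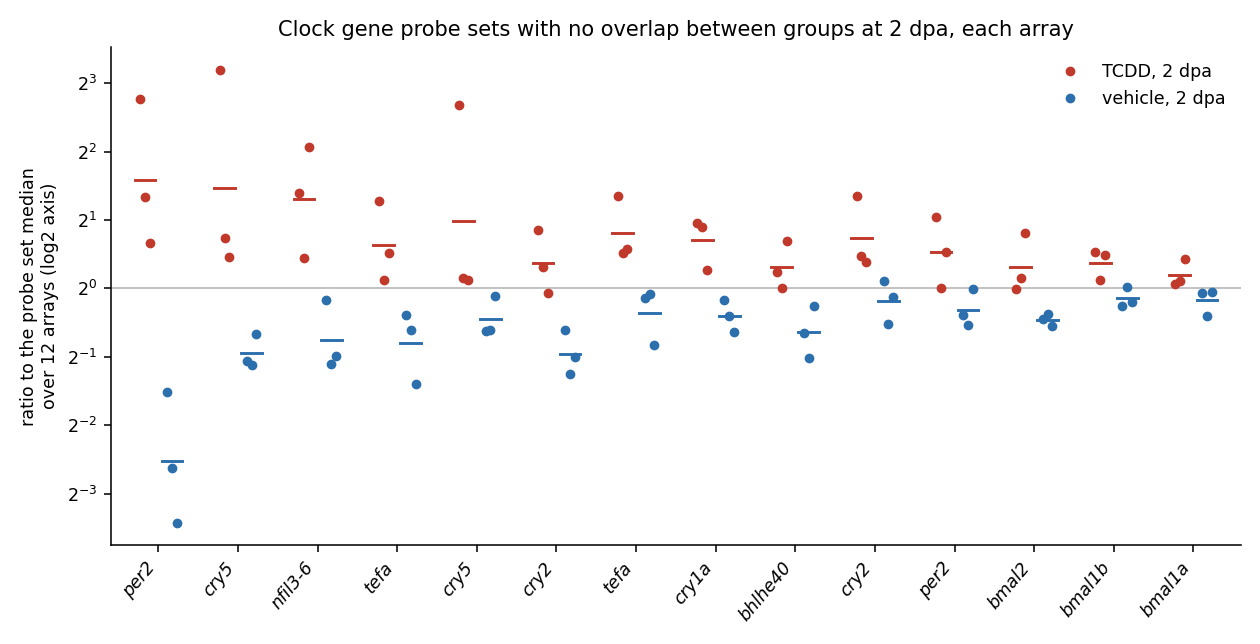
Ratio to the probe set's median over 12 arrays (vertical, log2 axis) for the 14 clock probe sets whose groups do not overlap at 2 dpa, ordered by effect. Points are single arrays, with TCDD in red left of vehicle in blue, and lines are means of log2 values. All TCDD points of a probe set lie above its vehicle points, and in per2 and cry5 1 TCDD array stands well above the other 2.

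Stress response genes were higher in part. Of 34 probe sets of 29 unfolded protein and amino acid stress genes 11 (32.4%) lay higher and 1 (2.94%) lower, beside 8.28% and 11.8% of all probe sets. The median was only 0.05, which ran from 0.042 without vehicle replicate 3 to 0.115 without TCDD replicate 3. Beside atf5a, its relative atf5b had ratios of 1.21, 1.08 and 1.03 with TCDD and 0.737, 0.655 and 0.702 with vehicle (0.67, adjusted p = 0.214), and the cationic amino acid transporter gene slc7a3a read 0.76. The 1 lower member was xbp1, a transcription factor gene that raises the folding capacity of the endoplasmic reticulum, at −0.33. The chaperone gene hspa5, a usual marker of that response, read 0.43 with overlapping groups.

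Of 60 probe sets of p53 targets and apoptosis genes 14 (23.3%) lay higher and 6 (10%) lower, beside 8.28% and 11.8% of all probe sets. The median was 0.03, which ran from 0.00 without vehicle replicate 2 to 0.10 without TCDD replicate 2. The pore-forming death gene baxa read 1.1, 1.11 and 1.16 with TCDD and 0.874, 0.8 and 0.708 with vehicle (0.51, adjusted p = 0.214), and the apoptosis inhibitor gene birc2 read 0.46. In the other direction the growth arrest gene gadd45ab read −1.05 and the autophagy factor gene tp53inp2a read −1.01. None of these 4 was called.

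Of 67 immediate early, AP-1 and KLF probe sets 13 (19.4%) lay higher and 6 lower, with a median of 0.09, and of 0.01 without TCDD replicate 3 or without vehicle replicate 2. Its largest named member lay lower. The flow-responsive transcription factor gene klf2a had ratios of 0.561, 0.737 and 0.151 with TCDD and 2.71, 1.26 and 3.48 with vehicle (−2.52, adjusted p = 0.146). BMP, activin and TGF-beta genes had 9 of 54 probe sets (16.7%) higher and 9 lower without overlap, beside 8.28% higher and 11.8% lower over all probe sets. The activin and BMP trap gene fsta read 1.37 and 0.69, and the BMP target gene id2b read −0.57 and −1.30.

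The AHR pathway component list, 15 probe sets of 11 genes, had 8 (53.3%) higher and 0 lower, beside 8.28% and 11.8% of all probe sets. Its median was 0.37. This list includes the bmal genes, which are relatives of ARNT and also belong to the clock list, and the 2 hsp90aa1.2 probe sets. Without TCDD replicate 3 its median was 0.14.

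**Figure D4:**
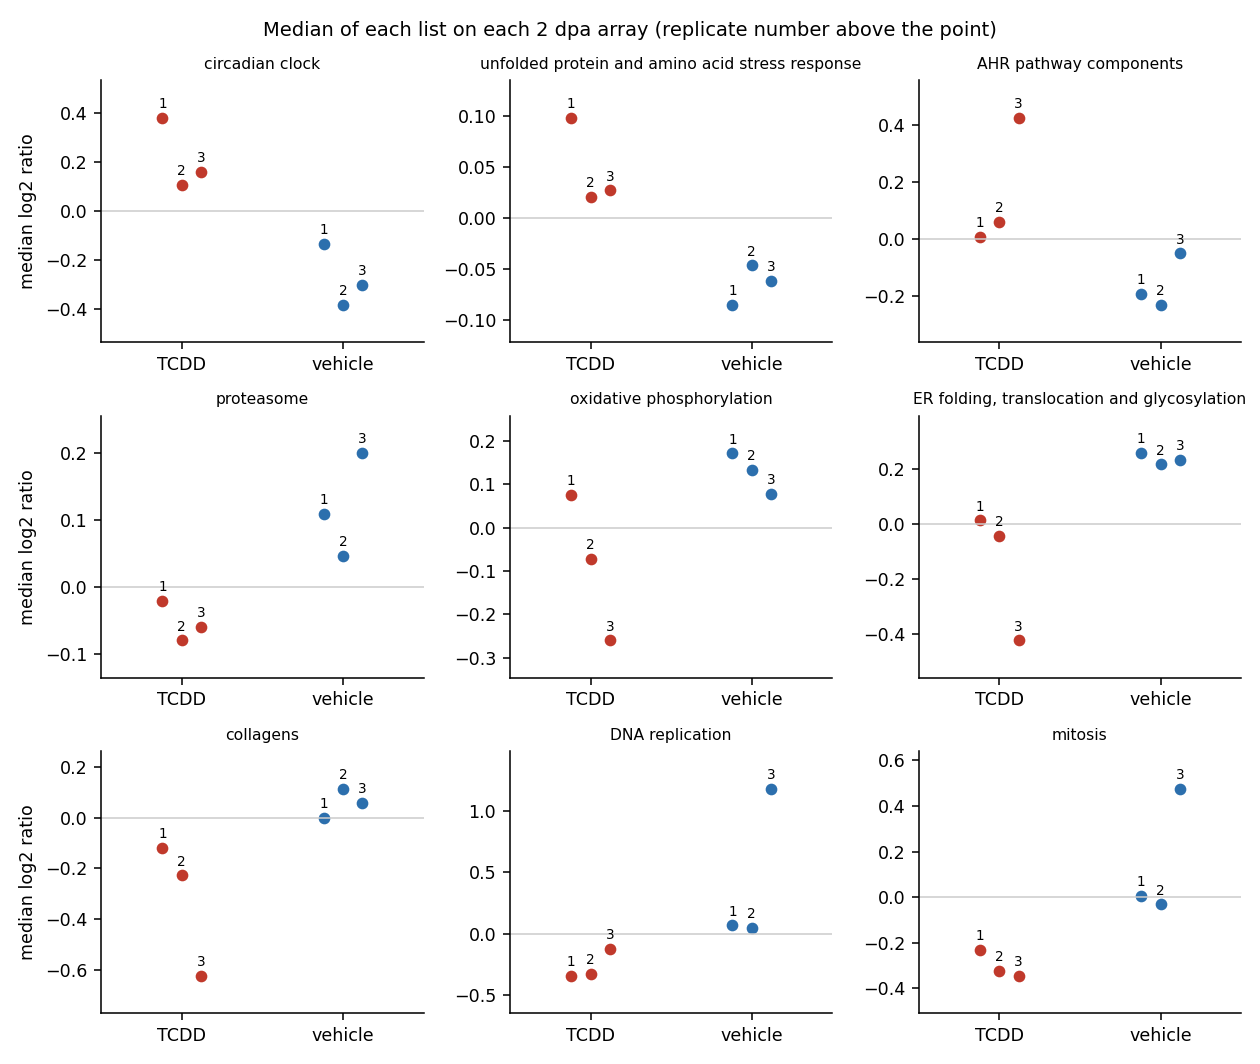
Median log2 ratio of each of 9 lists (vertical, own scale per panel) on each array at 2 dpa, with TCDD in red left of vehicle in blue and the replicate number above each point. Vehicle replicate 3 stands above the other vehicle arrays for DNA replication and mitosis, TCDD replicate 3 below the other TCDD arrays for collagens and the endoplasmic reticulum list, and TCDD replicate 1 above the others for the clock.

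Of 110 blastema and patterning transcription factor probe sets 21 (19.1%) lay lower and 7 (6.36%) higher, beside 11.8% and 8.28% of all probe sets, with a median of −0.01, and none was called. Homeobox genes were found on both sides, with the blastema genes msx1a at −0.96 and prrx1b at −1.24, and dlx4b at 1.43. The T-box gene tbx15 read −1.16. The transcription factor gene sox9b, which directs cartilage formation, had ratios of 0.122, 0.146 and 0.298 with TCDD and 2.73, 2.68 and 3.33 with vehicle (−4.05, adjusted p = 0.0908). Its other probe set read −0.01. The groups of the first probe set stood far apart at 2 dpa, yet it was not called. Its large SE of 0.76 rests on the spread within groups over all 12 arrays. At 3 dpa it read 0.43, 0.0541 and 0.57 with TCDD and 3.23, 2.78 and 1.43 with vehicle.

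Of 31 FGF signalling probe sets 4 lay lower (12.9%) and 1 higher (3.23%) without overlap, with a median of 0.01. Over all probe sets 11.8% lay lower and 8.28% higher. Among Hedgehog, retinoic acid and Notch genes 9 of 67 lay lower (13.4%) and 3 higher (4.48%). Keratin and epidermal genes had 12 of 102 higher (11.8%) and 7 lower (6.86%) with a median of 0.18, and the keratin gene krt91 read −1.80 and −1.64. Desmosome and tight junction genes had 8 of 51 higher (15.7%) and 2 lower (3.92%) with a median of 0.23.

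Marker lists of other cell types differed in how many probe sets lay without overlap, beside 8.28% higher and 11.8% lower over all probe sets. Liver, gut and yolk markers had 0 of 22 probe sets without overlap in either direction, endothelial markers 1 higher and 1 lower of 8, and lateral line markers 1 lower of 9. Neural and eye markers had 5 of 32 higher (15.6%) and 0 lower, notochord and floor plate markers 3 of 16 higher (18.8%) and 1 lower, and red blood cell markers 3 of 13 higher (23.1%) and 1 lower. The part of these cell types in the results was not tested. Pigment cells had the largest lower share of these lists, with 3 of 8 probe sets lower (37.5%) and 0 higher. These were the melanocyte regulator gene mitfa, with ratios of 0.626, 0.607 and 0.623 with TCDD and 1.16, 0.998 and 1.18 with vehicle (−0.84, adjusted p = 0.237), the melanin enzyme gene dct (−1.35) and the pteridine enzyme gene gch2 (−1.84). Other pigment markers, sox10, tyr and pmelb, read −0.22, −0.20 and −0.01 with overlapping groups.

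Chemokine genes were among the larger uncalled immune values, with ccl34b.1 at −1.84, cxcl12a at −1.48 and ccl27a at 2.52. Of 107 innate immunity probe sets 10 lay higher (9.35%) and 14 lower (13.1%) without overlap, beside 8.28% and 11.8% of all probe sets. The list median was −0.01.

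The arrays of 3 dpa, with vehicle pools of their own, give the same comparison a day later. All 25 called probe sets lay in the same direction at 3 dpa, 24 of them without overlap. Of all probe sets, 14.8% lay without overlap at 3 dpa in the direction of their 2 dpa effect. The 3 dpa arrays also entered the estimate of spread behind the calls, which favours probe sets with tight groups at 3 dpa. The counts of non-overlap and of calls at 3 dpa are therefore not independent of this selection. The 6 arrays of 2 dpa alone called 13 of the 25. At 3 dpa 89 probe sets (0.574%) were called, and they include 13 of the 14 that rose at 2 dpa and 5 of the 11 that fell. The rspo1 effect was 2.95 at 2 dpa and 4.19 at 3 dpa, with an unadjusted p of 0.0342 for the difference. The increase not called on the later day was jac1, at 2.34 (adjusted p = 0.0523).

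Of the called genes that fell, daxx had the lowest p for the difference between days. Its effect was −0.81 at 2 dpa and −0.03 at 3 dpa, where its 3 vehicle arrays read 0.918, 1.07 and 1.05, with an unadjusted p of 0.00131 for the difference. The phosphatase gene ptpn6 read −1.02 at 2 dpa and −0.41 at 3 dpa (unadjusted p = 0.00844), and hspb1 read −1.91 at 2 dpa and −1.07 at 3 dpa (unadjusted p = 0.0249). The complement gene c6.2 was the lower at 3 dpa, with −1.02 at 2 dpa and −1.57 at 3 dpa (unadjusted p = 0.0242). After adjustment limma called 0 probe sets for the difference between days, with 226 (1.46%) at an unadjusted p under 0.05, so none of these is shown to belong to 1 day.

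**Figure D5:**
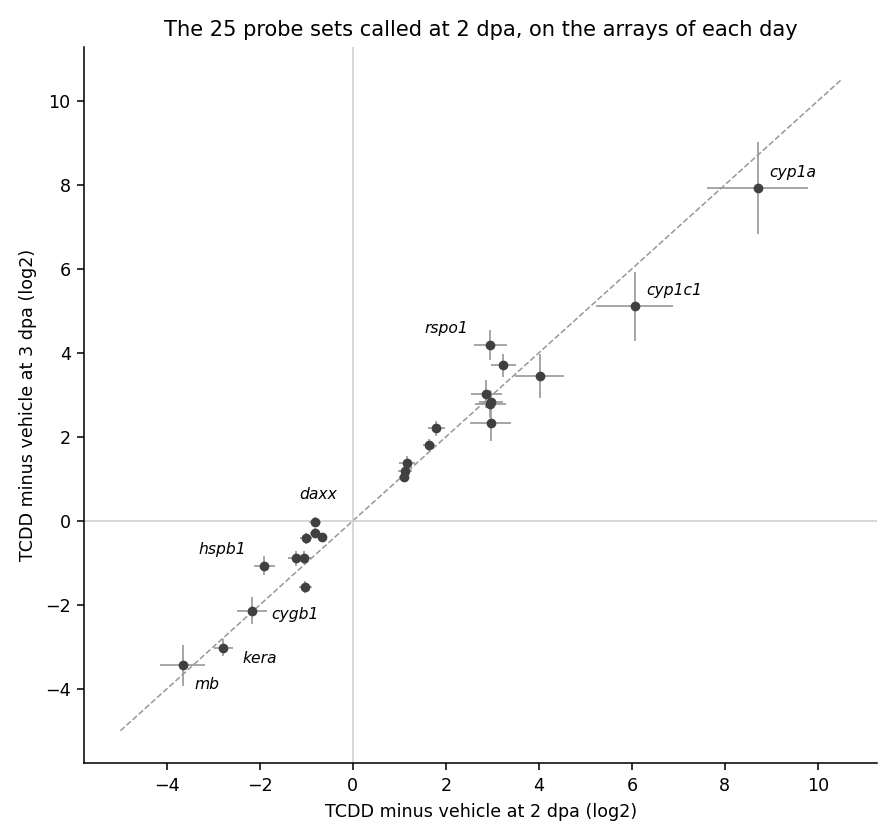
Effect of TCDD (log2, TCDD minus vehicle) at 2 dpa (horizontal) and at 3 dpa (vertical) for the 25 probe sets called at 2 dpa. Bars are standard errors of the limma fit and the dashed line marks equal effects. All 25 have the same sign on both days, and daxx lies nearest to 0 at 3 dpa.

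At 3 dpa 7.99% of all probe sets lay higher and 8.3% lower with TCDD without overlap. Of those apart at 2 dpa, 438 of the 1284 probe sets with all TCDD arrays higher at 2 dpa (34.1%) lay so at 3 dpa too, as did 656 of the 1823 lower ones (36%). Functions differed in how they read on the later day. The endoplasmic reticulum list had a median of −0.59 at 3 dpa, with 23 of its probe sets lower without overlap on both days, and all 8 collagen probe sets that lay lower at 2 dpa did so at 3 dpa. Cytosolic ribosomal proteins had a median of −0.16 at 3 dpa, with 5 probe sets lower on both days of the 36 at 2 dpa. Of the 14 clock probe sets 5 lay higher on both days. These shifts of lists between days were not tested.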

How the data were processed

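RNA of regenerating caudal fins was measured on 12 Affymetrix zebrafish arrays. Signals were computed with GCRMA, of a version not given in the sources used here, per the submitters' processing notes. The authors deposited them as linear ratios, whose scaling was read from the values: 12064 of 15617 rows have a median ratio of 1 (tolerance 1e-06) and 3553 a lower one. Leaving out 115 control probe sets left 15502. The lowest ratio was 0.000773, so log2 was taken without a pseudocount. No detection calls or signals were in the files used here, and the number of arrays limits the precision.

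Symbols came from the platform annotation (1 symbol for 10795 probe sets, several for 135, none for 4572), with 10711 matched to the GRCz12tu gene table and 1 changed. That table served for names only.

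Samples were grouped by their titles. The 4 group means were fitted to all 12 arrays with limma 3.58.1 in R 4.3.3 (lmFit, eBayes), with 2.08 prior degrees of freedom beside 8 residual ones. P-values are two-sided and Benjamini-Hochberg adjusted over all 15502 probe sets, with a threshold of 0.05. An exact permutation test of 3 against 3 cannot give a p below 0.1. The fit was tested on simulated data.

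Named genes are all called probe sets with 1 symbol, the 10 per direction nearest to a call whose groups do not overlap, and up to 4 members per list by lowest p. Other genes were named after their values were seen. Members and lists were chosen with earlier results of these data known. A planned count of promoter motifs was not run, as promoter sequences were not used here. Alternatives were other scalings, filters, moderation, array weights, a replicate block and leaving out each array.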

Additional observations from a re-analysis of the deposited data

Results flagged for a closer look

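Control probe sets outside the probe sets tested showed a difference between the groups. For GAPDH the 5' over 3' log2 ratio averaged 0.233 on TCDD arrays and 0.0136 on vehicle arrays at 2 dpa, a difference of 0.219. At 3 dpa the values were 0.185, 0.228 and 0.486 on TCDD arrays and 0.0816, −0.102 and −0.0962 on vehicle arrays. The TCDD arrays lay above the vehicle arrays on both days. The same ratio of the acta1 control probe sets overlapped between groups, with −1.43, −0.769 and 0.382 on TCDD arrays and −0.159, −1.04 and 0.388 on vehicle arrays at 2 dpa. What the GAPDH difference contributes to the gene values was not tested. With each control probe set on its own scale, these ratios compare arrays and do not give their RNA integrity.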

How the results depend on the processing

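The limma fit called 25 probe sets at 2 dpa, 14 higher and 11 lower with TCDD. Quantile normalization called 163 (73 higher, 90 lower) and array weights 247 (106 higher, 141 lower), both with all 25 included. The unmoderated test on the 6 arrays of 2 dpa called 0, with 1405 at an unadjusted p under 0.05. Leaving out 1 array gave 8 to 49, the lowest without vehicle replicate 1 at 2 dpa and the highest without vehicle replicate 3 at 3 dpa. The cause of these shifts was not tested. The 6 arrays of 2 dpa alone called 29, of which 13 were shared with the 25. The deviations of same-numbered arrays correlated at 0.0717, 0.19 and 0.141, and those of differently numbered arrays at −0.184 to 0.0767. Whether replicate numbers pair the arrays is not in the labels and was not tested. A replicate block called 27, of which 18 were shared. The calls of tph2 (adjusted p = 0.0556) and daxx (adjusted p = 0.0538) were lost with that block, as were those of 5 probe sets without a symbol (0.0546 to 0.0779), and 5 of 6 arrays correlated best with their own number. The other alternatives gave 23 to 32. No effect of a called probe set changed its direction in any alternative run, and the medians of the 18 lists described kept their sign in all 20. Several of these alternatives could not change a sign. The 2 dpa effects stay the same by design without any 1 array of 3 dpa, or with the 2 dpa arrays alone. The same holds for the replicate block and for trended, robust moderation. Leaving out a 2 dpa array could not reverse a called probe set either, as its groups do not overlap. Of the marker lists, the neutrophil and macrophage median of −0.01 changed sign in 5 of 20, that of liver, gut and yolk in 3, of the lateral line in 2 and of skeletal muscle in 1. For the difference between days, limma called 0 probe sets, as it did with the replicate block and with trended, robust moderation. No signal over background was given, so probe sets with low signal could not be told directly. The fit of only the probe sets with a median ratio of 1 called 32, of which 24 were shared with the 25. In that fit the red blood cell marker median was 0.866, against 0.0441 in the main fit. Pigment cell markers had −1.1 against −0.209, and mitosis had −0.596 against −0.317. Whether a median ratio below 1 marks low signal was not tested.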
